A study of Caenorhabditis elegans with 2 samples.

Results

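Rab, Arf and Arl proteins are small GTPases that mark the membranes of the cell. Each cycles between a GDP-bound and a GTP-bound form, switched on by a guanine nucleotide exchange factor (GEF) and off by a GTPase-activating protein (GAP), and in the GTP-bound form it recruits effectors such as coats, tethers and motors. Rab proteins carry a prenyl anchor and are taken off membranes by GDI, Arf proteins recruit the COPI coat and clathrin adaptors, and Arl proteins act at the Golgi, at lysosomes and in cilia.

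The family was taken from the deposited RPKM table (reads scaled by gene length and library size) as the genes whose name begins with rab, arl or arf followed by a number, without the neuronal gene rab-3. This gave 30 of 19874 genes analysed, made up of 19 rab, 4 arf and 7 arl genes. Family members named otherwise, such as unc-108, are therefore not among them. The choice used names only and no measured value.

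RNA sequencing had been carried out on total RNA of 2 samples of the nematode Caenorhabditis elegans, which form a single group. Both samples are of one strain with 2 mutations, e1370 in daf-2, which encodes the worm's insulin receptor homologue, and m20 in daf-12, which encodes a nuclear receptor for steroid hormones. Animals were grown at 20 °C on OP50 bacteria as mixed-stage cultures, so each value averages animals of different ages and tissues. Whether the replicates were grown separately is not stated in the labels, and the spread between them may be technical. No wild type was analysed here, so no level can be called raised or lowered by either mutation.

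The mutated genes were both detected, daf-2 at 14.6 and 14.01 RPKM and daf-12 at 13.3 and 13.6 RPKM in replicates 1 and 2, and these levels say nothing on the alleles. Markers of adults (the yolk protein gene vit-6, at 3153 and 2956 RPKM) and of molting larvae (mlt-10, at 26.0 and 27.5 RPKM) were both present. Depth, read from the spacing of low RPKM values, was close to 10540000 reads for replicate 1 and 14650000 for replicate 2. With these depths, RPKM times length came out within 0.1 of a whole number of reads for 30 of 30 members in each replicate. The length was the coding length, or the exon length for the pseudogene arl-7. For rab-18 it was chosen to give whole reads, so its result was fixed in advance. Read numbers below are estimates from these depths and lengths, and intervals cover counting error only.

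The family was abundant as a whole, but split into a high and a low set. Of the 30 members, 27 had a mean of at least 1 RPKM (72.0% of all genes did), 22 had at least 10 RPKM (42.0% of all genes) and 6 had at least 100 RPKM (7.63% of all genes). The median of the members was 38.5 ± 2.90 RPKM (SD of the medians of the 2 replicates), beside 6.17 RPKM for all genes. No member had a mean between 4.39 RPKM (arf-1.1) and 21.9 RPKM (rab-33), so that 22 genes lay above this gap and 8 below it. The gap was found in these same values, and the share of all genes within it was not counted. The 22 upper genes held 99.5% of the summed RPKM of the family, and the 4 highest, rab-11.1, arf-3, arf-1.2 and rab-1, held 56.3%.

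**Figure D1:**
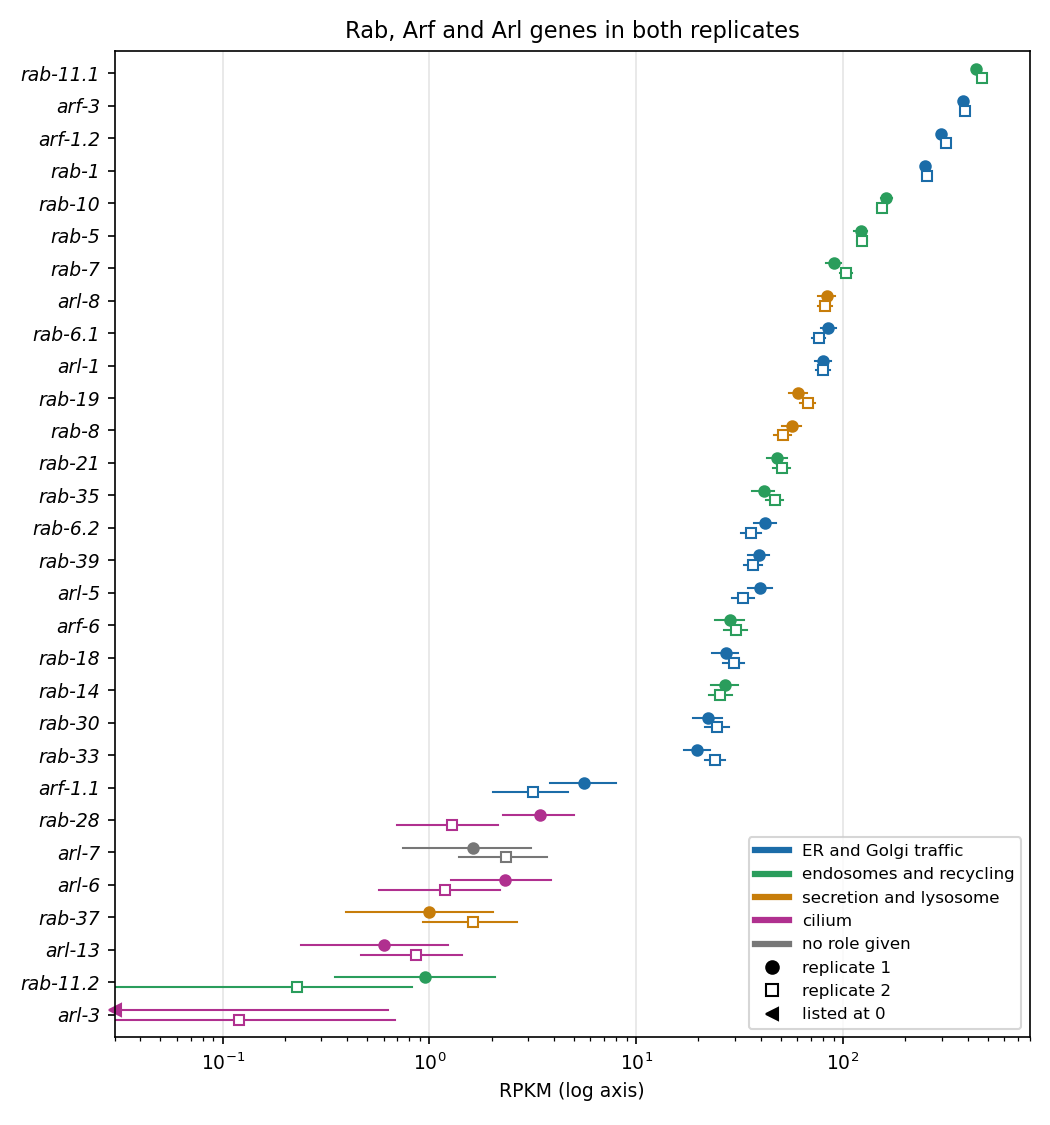
RPKM of each of the 30 genes (log axis) in replicate 1 (filled circles) and replicate 2 (open squares), with exact Poisson 95% intervals as lines and colours for the role; a triangle at the left edge marks the value listed at 0. The upper 22 genes range from rab-33 to rab-11.1 with narrow intervals, and the lower 8, which include all 4 genes given the role of cilium, have wide ones.

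The highest member was rab-11.1, the GTPase of recycling endosomes that is also needed for cell division and for exocytosis in the early embryo. Its level was 442 and 468 RPKM in the replicates (455 ± 18.3, SD, n = 2), from 2962 and 4358 reads. This placed it at rank 393 of 19874 genes. It lies on chromosome I from 108682 to 110057 in the WBcel235 annotation and encodes 211 amino acids.

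Next came 2 Arf genes of the Golgi. arf-3, annotated today as arf-5, was at 379.5 and 391 RPKM, and arf-1.2, annotated today as arf-1, was at 298 and 313 RPKM. Arf GTPases of this kind recruit the COPI coat, which returns vesicles from the Golgi to the endoplasmic reticulum. arf-1.2 was lower than arf-3 in both replicates, by -0.35 and -0.32 on the log2(RPKM + 1) scale (mean -0.33 ± 0.02, SD, n = 2). arf-3 lies on chromosome IV from 7982526 to 7983852 and arf-1.2 on chromosome III from 5714886 to 5717586.

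rab-1, which acts in the step from endoplasmic reticulum to Golgi, followed at 250 and 256 RPKM on chromosome V from 1262629 to 1263989. The replicates of these 4 genes differed by less than the distance to the next gene in the order, so their order was the same in both. For the whole order, 12 of 29 neighbouring pairs had overlapping replicate values and could not be ranked against each other. Values that do not overlap are no proof of an order either. The lowest value of rab-18 was 27.05 RPKM and the highest of rab-14 was 26.83 RPKM. Their counting intervals in replicate 1 were 23.3 to 31.2 and 23.0 to 31.1 RPKM.

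Genes of endosomes formed the next steps of the order. rab-10, known for basolateral recycling in the worm intestine, was at 162 and 154 RPKM. rab-5, the GTPase of early endosomes, was at 122 and 124 RPKM. rab-7, the GTPase of late endosomes and lysosomes, was at 90.1 and 103 RPKM, and it was the only one of the 3 that was higher in replicate 2 by more than counting error. Of the 9 endosomal members, 8 had a mean of at least 10 RPKM, with a median of 49.4 ± 1.65 RPKM (SD of the 2 medians).

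The other endosomal genes were lower and close together. rab-21 was at 48.2 and 50.5 RPKM, and rab-35, which in worms returns the yolk receptor to the oocyte surface, was at 41.3 and 46.8 RPKM. arf-6, the Arf of the plasma membrane and of recycling, was at 28.4 and 30.3 RPKM, far under the Golgi Arf genes. rab-14, known for the maturation of phagosomes with apoptotic cells, was at 26.8 and 25.6 RPKM.

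Among the 12 members of the endoplasmic reticulum and the Golgi, 11 had a mean of at least 10 RPKM and the median was 38.5 ± 3.19 RPKM (SD of the 2 medians). arl-1, which recruits golgins to the trans-Golgi, was at 80.2 and 79.8 RPKM, the closest agreement of any member. arl-5, another Arl of the Golgi, was at 39.8 and 32.9 RPKM. rab-18 was at 27.1 and 29.6 RPKM, rab-30 at 22.2 and 24.6 RPKM, and rab-33 at 19.7 and 24.1 RPKM, with known roles in mammals at lipid droplets, at the Golgi and in autophagy respectively. rab-39, given with this group, was at 39.2 and 36.8 RPKM.

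In the group of secretion and lysosomes, arl-8 led at 83.3 and 81.6 RPKM. ARL-8 moves lysosomes and carries synaptic vesicle precursors along axons. rab-19 was at 60.4 and 67.4 RPKM and rab-8, which acts in exocytosis, at 56.4 and 51.1 RPKM. rab-37 stood apart from them at 0.99 and 1.63 RPKM, from 7 and 16 reads.

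All 4 members given the role of cilium were in the low set, and none had a mean of 10 RPKM or more. Each member was given a single role, so members of the other groups may act in cilia as well. rab-28, which in worms associates with the BBSome and intraflagellar transport, was at 3.43 and 1.28 RPKM, from 27 and 14 reads. arl-6, the GTPase that brings the BBSome to ciliary membranes, was at 2.32 and 1.19 RPKM, from 14 and 10 reads. arl-13, a GTPase of the ciliary membrane, was at 0.60 and 0.86 RPKM, from 7 and 14 reads. Their median was 1.24 ± 0.31 RPKM (SD of the 2 medians), against 49.4 RPKM for endosomal members.

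The lowest member was arl-3, which releases lipid-anchored cargo in cilia. It was listed at 0 in replicate 1, where its exact counting interval reaches up to 0.631 RPKM. The floor of 3 reads lies at 0.513 RPKM for arl-3 in that replicate. In replicate 2 arl-3 was at 0.12 RPKM, from 1 read. Cilia in worms are made by a subset of sensory neurons, and in RNA of whole animals fewer cells of a type and less RNA per cell cannot be told apart. The 7 BBSome genes were in the same range, with a median of 0.58 RPKM and none at 10 RPKM. bbs-8 was highest at 2.0 and 1.17 RPKM, bbs-5 was at 1.22 and 1.01 RPKM, bbs-2 at 0.59 and 0.94 RPKM, and bbs-1 was lowest at 0.49 and 0.24 RPKM.

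Close relatives within the family differed widely in some cases and little in others. rab-6.1 was at 84.9 and 76.3 RPKM and rab-6.2 at 42.1 and 36 RPKM, both for GTPases of the Golgi. The difference between them was 0.996 in replicate 1 and 1.06 in replicate 2 on the log2(RPKM + 1) scale (mean 1.03 ± 0.05, SD, n = 2), which is larger than the spread between replicates. rab-6.1 lies on chromosome III from 9004821 to 9005955 and rab-6.2 on chromosome X from 17222475 to 17224465, each with 205 amino acids.

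rab-11.2, by contrast, was almost unmeasured beside rab-11.1. It was at 0.95 and 0.23 RPKM, from 6 and 2 reads, the second of which is under the floor of 3 reads. Summed over both libraries and per coding length, rab-11.1 had 859 times the reads of rab-11.2, with an exact binomial 95% interval of 436 to 1990 that covers counting error only. Both genes are on chromosome I, rab-11.2 from 11632983 to 11638491. How reads shared by the paralogs were assigned is not given in the sources used here.

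arf-1.1, annotated today as warf-1, was likewise far under its relative arf-1.2, at 5.62 and 3.16 RPKM, from 32 and 25 reads. The difference on the log2(RPKM + 1) scale, arf-1.2 over arf-1.1, was 5.5 and 6.24 (mean 5.87 ± 0.52, SD, n = 2). arl-7 is a pseudogene in the WBcel235 annotation, and it was at 1.63 and 2.34 RPKM, from 9 and 18 reads. The median of the Arf genes was thus 167 ± 6.07 RPKM and of the Rab genes 44.0 ± 3.35 RPKM (SD of the 2 medians). For the Arl genes the median of the mean levels was 1.98 RPKM. Their medians in replicates 1 and 2 were 2.32 and 2.34 RPKM, because the middle gene changed between replicates. The Arl median hides a split, since arl-8, arl-1 and arl-5 were above 30 RPKM in both replicates and the remaining 4 under 3 RPKM.

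The levels of genes for proteins that handle Rab GTPases varied widely. gdi-1, which encodes the GDI that extracts Rab proteins from membranes, was the highest of them at 297 and 299.7 RPKM. The 19 rab genes together summed to 1539 and 1577 RPKM. The prenylation genes were lower, with ggtb-1 at 48.4 and 45.8 RPKM, M57.2 at 29.3 and 29.2 RPKM and the escort gene rep-1 at 14.4 and 14.2 RPKM.

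Of the 16 Rab GEF genes listed, 14 had a row, with a median of 15.4 RPKM. rei-1, a GEF gene for RAB-11.1, was highest at 133 and 119.1 RPKM, followed by the TRAPP subunit genes trpp-6 at 87.4 and 87.5 RPKM and trpp-4 at 48.1 and 42.2 RPKM. aex-3, a neuronal GEF gene, was lowest at 3.44 and 3.49 RPKM. The 21 Rab GAP genes with a row had a median of 11.6 RPKM and none reached 100 RPKM, with tbc-15 highest at 39.8 and 42.8 RPKM, tbc-14 at 36.4 and 35.6 RPKM, tbc-3 at 30.4 and 32.5 RPKM and tbc-8 lowest at 1.76 and 2.09 RPKM.

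The 19 Rab effector genes had a median of 12.97 RPKM. The highest was rfip-1 at 58.0 and 54.4 RPKM, followed by ehbp-1 at 27.4 and 25.7 RPKM and rabn-5 at 26.5 and 25.3 RPKM, and the synaptic gene unc-10 was lowest at 2.12 and 2.33 RPKM. RPKM is scaled by gene length, so these levels were set beside those of the GTPases. Other differences between genes in how reads were mapped or counted were not examined. The levels are shares of RNA reads and do not measure active protein.

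**Figure D2:**
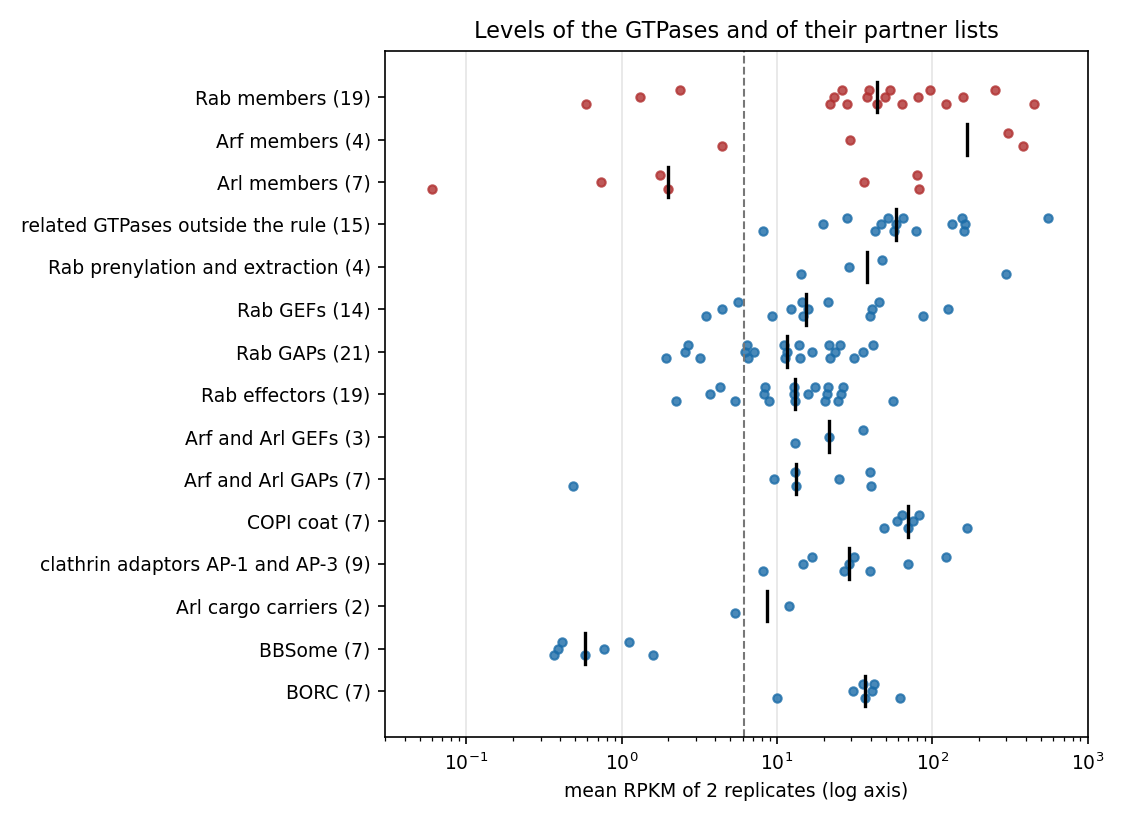
Mean RPKM of 2 replicates (log axis) for each Rab, Arf and Arl gene (red) and for each gene of the 12 partner lists (blue); numbers in brackets are genes with a row, black bars are medians, and the dashed line is the median of all genes, 6.17 RPKM. The medians of the Rab GEF, GAP and effector lists, 15.4, 11.6 and 12.97 RPKM, lie under that of the Rab genes, 44.0 RPKM, and the BBSome list lies with the low Arl genes.

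Arf partners varied by kind. COPI coat genes had the highest median of the 12 lists, 69.3 RPKM over 7 genes. copz-1 was at 170 and 166 RPKM, cope-1 at 84.4 and 81.0 RPKM, copd-1 at 78.3 and 72.1 RPKM, and copb-1 lowest at 49.9 and 47.8 RPKM. The adaptor genes of AP-1 and AP-3 had a median of 29.1 RPKM over 9 genes, led by aps-1 at 129 and 114.8 RPKM and aps-3 at 74.7 and 65.7 RPKM, with apm-1 at 39.3 and 39.9 RPKM and apd-3 lowest at 9.19 and 7.11 RPKM.

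Genes for regulators of Arf and Arl proteins were measured as well. The GEF genes grp-1, efa-6 and agef-1 were at 37.7 and 33.5, 21.9 and 21.3, and 14.3 and 11.95 RPKM. Among 7 Arf and Arl GAP genes, with a median of 13.3 RPKM, K02B12.7 was at 39.2 and 41.1 RPKM, F07F6.4 at 39.9 and 39.4 RPKM and W09D10.1 at 24.5 and 25.9 RPKM. The lowest was rpi-2, relative of a human GAP for ARL3, at 0.37 and 0.60 RPKM. The 7 genes of BORC, the complex that brings ARL-8 to lysosomes, had a median of 36.96 RPKM, with blos-1 at 64.2 and 59.9 RPKM, blos-9 at 42.2 and 41.9 RPKM, sam-4 at 40.8 and 40.5 RPKM and blos-7 lowest at 12.01 and 7.92 RPKM.

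For 11 of the 30 members, the GTPase gene was then set against genes known to act with it, in 32 pairs. In the 27 pairs that did not involve arl-3 or arl-6, the GTPase was higher than its partner in both replicates. Their median difference was 2.52 on the log2(RPKM + 1) scale. The pairs were chosen after values were seen, and all 27 use a GTPase of the high set. The low paralogs rab-11.2 and arf-1.1 were set against no partner. The count therefore depends on this choice and does not describe the family as a whole. The smallest was arl-8 over blos-1, at 0.41 ± 0.05 (SD, n = 2), followed by arf-6 over its GEF gene efa-6 at 0.42 ± 0.09 (SD, n = 2). The largest were arf-1.2 over the GEF gene agef-1 at 4.45 ± 0.22 (SD, n = 2) and rab-10 over the GAP gene tbc-4, which was at 6.53 and 6.31 RPKM, at 4.42 ± 0.02 (SD, n = 2).

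For rab-5, all 7 partners were lower. Its GEF genes rabx-5 and rme-6 were at 15.3 and 13.7 RPKM and at 5.38 and 5.82 RPKM, its GAP gene tbc-2 at 22.1 and 21.2 RPKM and its effector gene eea-1 at 13.2 and 12.5 RPKM. For rab-7, the GEF genes sand-1 and ccz-1, whose products work as one complex, were at 40.4 and 39.2 RPKM and at 15.96 and 15.91 RPKM. rab-11.1 exceeded rei-1 by 1.84 ± 0.17 and rei-2 by 4.34 ± 0.07 (SD, n = 2).

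The order was turned around for arl-3 and its carrier genes, unc-119 at 11.4 and 12.4 RPKM and pdl-1 at 4.74 and 5.97 RPKM, both above the counting interval of arl-3 in each replicate. Its other partners, arl-13 and rpi-2, were listed above it in both replicates, but under 1 RPKM and with counting intervals that overlap that of arl-3, so that their order was not detectable at this depth. arl-6 was above bbs-1 by 0.99 ± 0.24 (SD, n = 2), with 9 and 6 reads for bbs-1. bbs-1 was the lowest of the 7 BBSome genes and the only one paired with arl-6. The highest, bbs-8, was at 2.0 and 1.17 RPKM, beside 2.32 and 1.19 RPKM for arl-6.

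**Figure D3:**
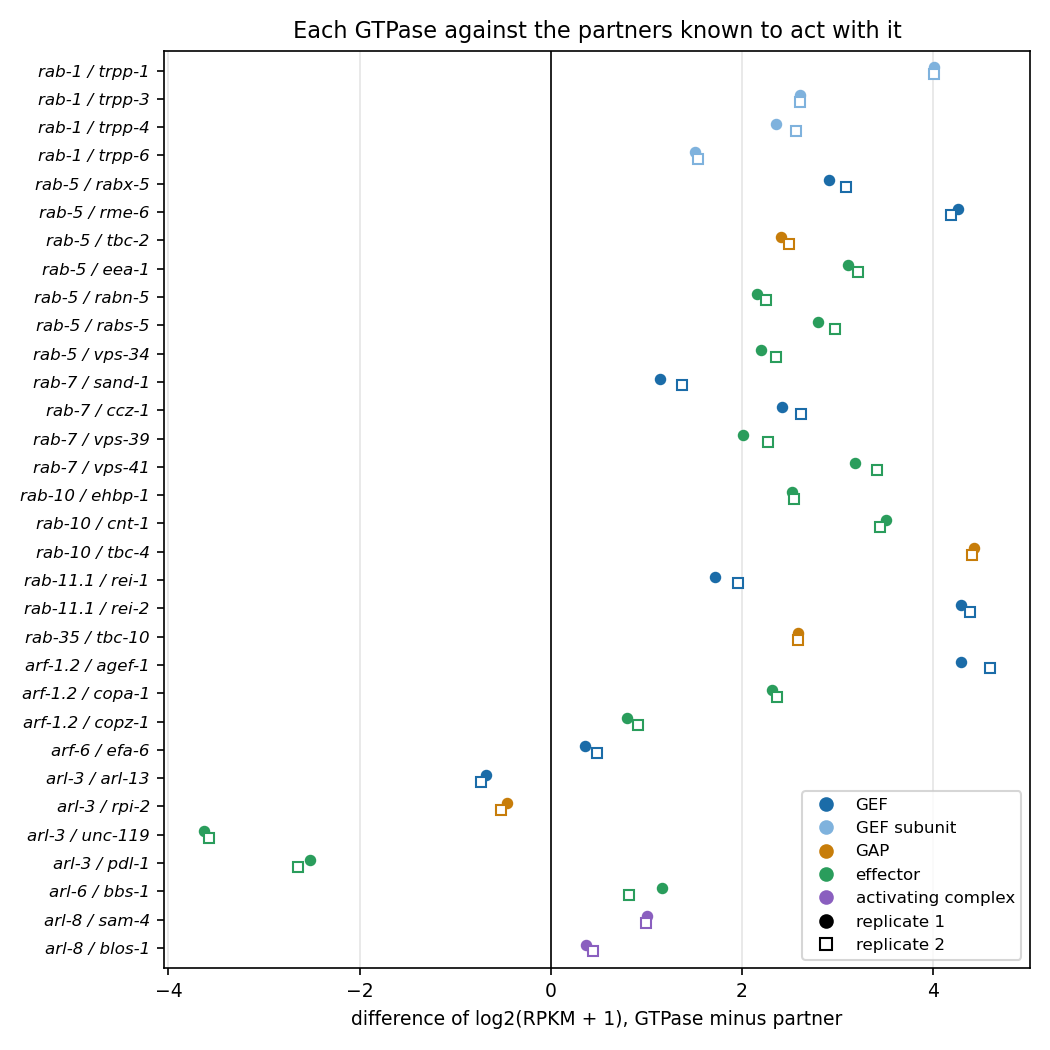
Difference of log2(RPKM + 1) between each GTPase and a partner gene in replicate 1 (filled circles) and replicate 2 (open squares), coloured by the kind of partner; values right of 0 mean a higher GTPase. All pairs but the 4 of arl-3 lie to the right of 0, and replicates of a pair lie close together.

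The replicates agreed for the upper 22 genes and scattered for the lower 8. Among the 22, the SD of the replicates had a median of 4.47% of the mean, with a range from 0.336% (arl-1) to 14.1% (rab-33), beside 4.74% for all genes with a mean of at least 10 RPKM. Among the 8, the median was 42.6%. No such value was calculated for all genes under 10 RPKM, so this spread cannot be set against that of other low genes. The median log2 ratio of replicate 2 to replicate 1 over the 30 members was 0.04, and -0.02 over all genes with a mean of at least 1 RPKM, with 17 members higher and 13 lower in replicate 2.

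The replicates of 6 of 30 members differed by more than 0.32 on the log2(RPKM + 1) scale, which understates the change of low genes, beside 16.7% of all genes. These were arf-1.1, rab-28, arl-6 and rab-11.2, lower in replicate 2, and arl-7 and rab-37, higher in replicate 2. All 6 were of the low set. Of the 27 members at 1 RPKM or more, 5 lay beyond the limit, beside 13.3% of genes at that level, with 2 higher in replicate 2 (5.73% of such genes) and 3 lower (7.62%). On the same scale, with 1 RPKM added, 4 of 30 members lay beyond 1.5-fold (4.57% of all genes) and 0 of 30 beyond 2-fold (0.780% of all genes), although rab-28 and rab-11.2 differed by more than 2-fold in RPKM itself.

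The exact 95% counting interval of the ratio of reads per depth excluded equal levels for 6 members, beside 13.7% of 19323 genes with estimated reads. Reads were estimated only for genes with a coding length, or an exon length for pseudogenes. Of the 6 members, 3 were higher in replicate 2 (5.10% of such genes) and 3 lower (8.61% of such genes). Only rab-28 and arf-1.1 were beyond both limits. For rab-28 the log2 ratio of reads per depth was -1.42 (interval -2.47 to -0.44), and for arf-1.1 it was -0.83 (-1.65 to -0.03). The other 4 were well covered genes with small ratios. arl-5 was at -0.27 (-0.54 to -0.01), rab-33 at 0.29 (0.03 to 0.55), rab-7 at 0.20 (0.05 to 0.35) and rab-11.1 at 0.08 (0.01 to 0.15).

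**Figure D4:**
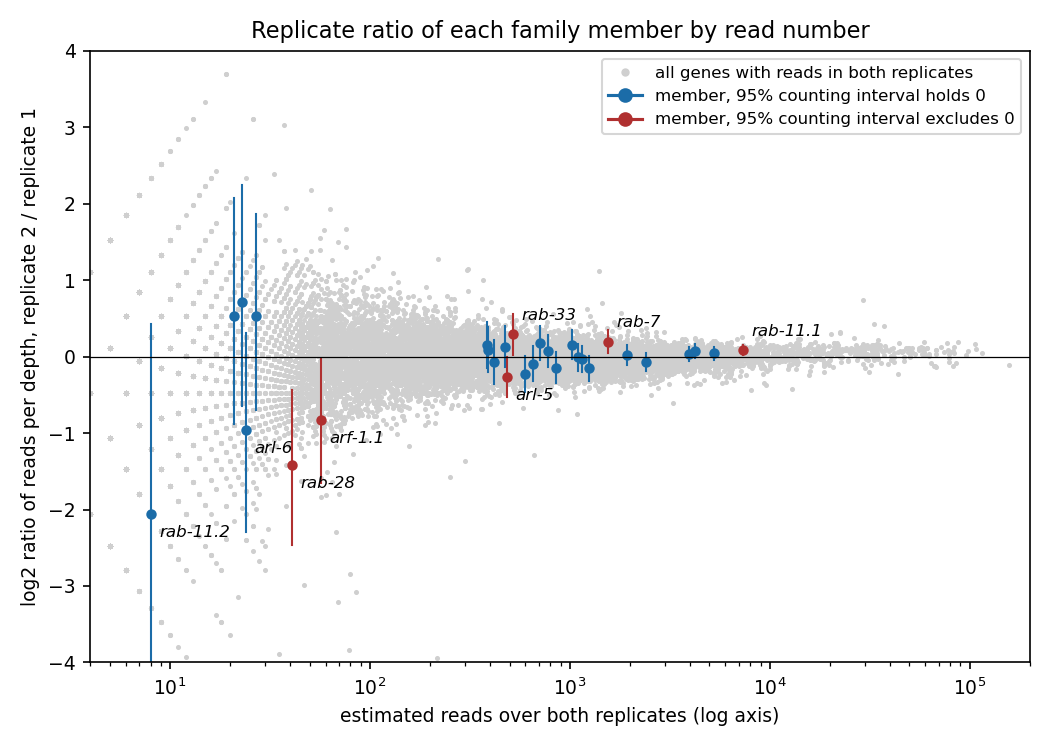
Log2 ratio of reads per depth, replicate 2 over replicate 1, against the estimated reads over both replicates (log axis). Members are shown with exact 95% counting intervals, and all genes with estimated reads in both replicates are in grey. arl-3 has no ratio, and intervals are clipped at the axis ends. The interval of rab-28 reaches from -2.47 to -0.44 at 41 reads, while rab-11.1 sits close to 0 at 7320 reads.

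Most of the genes have short coding sequences, which the naming rule did not use. The longest coding sequence of the 29 members with a coding annotation had a median length of 618 bases including the stop codon, with a range from 528 (arf-6) to 1113 (arl-13), beside 1011 bases for all genes with a coding length. They had a median of 4 coding exons, from 2 in arl-3 to 9 in arl-13, beside a median of 5 for all such genes, and arl-13 was above the median of all genes in both length and exons. Levels and coding length were weakly related over the 29 genes (Pearson's r = -0.32, Spearman's rho = -0.18), and levels and the length of the gene on the chromosome somewhat more (r = -0.46, rho = -0.43), as a description of genes that share 2 libraries.

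Of the 30 members, 8 lie on chromosome III, 6 each on chromosomes I and IV, 5 on II, 4 on X and 1, rab-1, on V. Of the 19370 genes matched to the annotation, 13.4% were on III, 14.4% on I, 16.6% on IV, 17.3% on II, 13.5% on X and 24.8% on V. The members' shares were 26.7%, 20.0%, 20.0%, 16.7%, 13.3% and 3.33% in the same order. Exons of 11 members overlap those of another gene in the annotation, and in 3 the overlap reaches their coding sequence. rab-19 shares 138 coding bases with an exon of Y62E10A.20, which was at 18.03 and 18.94 RPKM, and rab-7 shares 18 with W03C9.5, at 52.6 and 49.5 RPKM. arl-13 shares 93 with a non-coding RNA gene, and outside its coding sequence 13 bases with the ribosomal gene rla-1, at 1484 and 1744 RPKM. The overlaps of rab-19 and rab-7 are on the same strand and those of arl-13 on opposite strands, which the library kit does not mark, and how reads in such stretches were counted is not given in the sources used here.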

How the data were processed

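TruSeq RNA libraries of 2 samples were sequenced, per the labels' protocols, and CASAVA 1.8.2 is named in the submitters' processing notes; the aligner, the counting method and the build are not given here by any source. RPKM values per gene were deposited for both replicates, per the file headers, so no count model was used. Digit separators were removed from 205 and 208 values. Of 19990 rows, 104 with coordinates in the name and 12 sharing a name were left out.

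Positions and lengths come from Ensembl release 115 (WBcel235), where 17465 names had a symbol, 1902 a sequence name and 504 no match. The links from arf-1.2, arf-3 and arf-1.1 to current names come from knowledge of worm nomenclature, and with the coding lengths of those genes all 3 gave whole reads in both replicates.

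Depth was the number of reads at which RPKM times coding length is closest to whole reads: 87.6% of 4249 low values in replicate 1 and 88.4% of 3270 in replicate 2 were within 0.1 read, where chance gives 20%. For rab-18 the summed coding length of its transcripts, 663 bases, was used after seeing that the longest, 612, gave no whole number. The floor is 3 reads; intervals are exact at 95%. The depth estimate and the ratios were tested on simulated data with known depths and changes.

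There is 1 group, so no test between groups was possible and no p-value was calculated. Values are means ± SD of 2 replicates. Named genes are all members, the 3 highest and the lowest of each partner list, and the mutated genes; vit-6, mlt-10, overlapping genes and the partners in pairs were chosen after values were seen. The members and lists were chosen with earlier results of these data known. Alternatives were pseudocounts of 0.5 and 0.1 RPKM instead of 1, scalings, filters, fold limits and leaving out each replicate. Calculations used scipy 1.17.1, numpy 2.4.6 and pandas 2.3.3 under Python 3.11.15, and figures matplotlib 3.10.9.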

Additional observations from a re-analysis of the deposited data

How the results depend on the processing

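Of 57 alternative values over 10 results, 50 moved the value by no more than the replicate SD (for the replicate ratio, the SD over members) or, for a count, by no more than 1.5 times. Part of this number was fixed in advance. For the differences between paralogs, leaving out 1 of 2 replicates cannot move the mean by more than the SD. The SD over members is wide beside the median replicate ratio, so that limit was hard to pass. The 50 are therefore no measure of robustness. The 7 alternatives beyond these limits were these. The median level of the members was 44.0 RPKM when only members with a mean RPKM of at least 1 were kept, and 25.2 when RPKM was multiplied by coding length, which gives reads scaled by library size alone, against 38.5 RPKM. The Arl median was 2.32 to 2.34 RPKM with 1 replicate left out, against 1.98 RPKM. The difference between rab-11.1 and rab-11.2 was 8.20 with a pseudocount of 1 RPKM, 8.79 with 0.5 and 9.59 with 0.1. With a limit of 2-fold on the log2(RPKM + 1) scale, 0 of 30 members lay beyond it, against 6 at a log2 limit of 0.32, and rab-28 and rab-11.2 differed by more than 2-fold in RPKM itself. The multiplication by coding length, the addition of family members named otherwise, the omission of arl-7 and the counting interval were added after seeing the data. The median log2 ratio of the members was 0.01 to 0.06 over the scalings. Depth limits arl-3 and rab-11.2, which had fewer than 3 reads in at least 1 replicate. No paired analysis was possible because the samples form 1 group.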

Other observations

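Among small GTPases of the same superfamily that the naming rule leaves out, 17 were listed and 15 had a row. Their median was 58.1 RPKM, and 14 of the 15 were at 10 RPKM or more. The nuclear transport gene ran-1 was at 544 and 563 RPKM, above every Rab, Arf and Arl gene. sar-1, the GTPase gene of the COPII coat, was at 162 RPKM in both replicates, and rho-1, a regulator of the actin cytoskeleton, at 155 and 167 RPKM. unc-108, the RAB-2 gene of the Golgi and of dense core vesicles, was at 151 and 160 RPKM, glo-1, a Rab gene of gut granules, at 26.6 and 29.5 RPKM, and evl-20, the ARL2 gene of microtubule assembly, at 23.3 and 16.1 RPKM. aex-6, the RAB-27 gene, was lowest at 6.44 and 9.90 RPKM, and rab-3 was at 15.0 and 12.5 RPKM. unc-108, glo-1, evl-20 and rab-3 were chosen after their values were seen. With unc-108, aex-6, glo-1, evl-20 and rab-3 added, the median level of the family was 36.3 RPKM, against 38.5 RPKM for the 30 members.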
